A study of Mus musculus with 12 samples.

Results

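The maturation and thymic egress genes described here are 8 mouse genes, S1pr1, S1pr4, Klf2, Cd69, Ms4a4b, Dgka, Cd24a and Cd44, chosen by name out of 13207 genes in the deposited table. Their messenger RNA was measured by RNA sequencing in CD4+ thymocytes of C57BL/6 mice, sorted 7 days after an intraperitoneal injection of tamoxifen at 10 μg per g. Tamoxifen was given in all 4 groups, and tdTomato marks the cells that were labelled by it. Green fluorescent protein (GFP) separates regulatory T cells (Treg, GFP+) from conventional T cells (Tconv, GFP-). The groups, of 3 libraries each, were CD73+ new Treg (tdTomato+GFP+CD73+), CD73- new Treg (tdTomato+GFP+CD73-), tdTomato- Treg (tdTomato-GFP+, not divided by CD73) and new Tconv (tdTomato+GFP-CD73-). CD73 is a surface enzyme that makes adenosine from AMP.

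What drives the tdTomato label, which gene carries GFP, and the age and sex of the mice are not given in the sources used here. Cells sorted as tdTomato- Treg can hold any Treg that escaped the label, whatever its age. Libraries carry the letters A, B and D, and the values of 3 libraries below follow that order. Whether 2 libraries of a group are from different mice is not stated in the labels, and a p-value here covers library-to-library spread, some of which may be technical.

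A T cell that has finished selection in the thymus stays in the medulla for some days, loses CD24, gains class I MHC and leaves for the blood. Exit follows the lipid sphingosine 1-phosphate (S1P), which is abundant in blood and scarce in tissue, and needs the receptor S1PR1 on the T cell. The transcription factor FOXO1 drives Klf2, KLF2 drives S1pr1, and CD69, which appears on recently stimulated cells, binds S1PR1 and keeps it off the surface. Treg are also found in the thymus as older cells that stayed or came back from the periphery, and these are known for high CD44.

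The 8 genes lie on 6 chromosomes (GENCODE M21 annotation, mm10). S1pr1 (ENSMUSG00000045092.8) lies on the minus strand of chromosome 3, 115710433 to 115715072. On chromosome 10 lie S1pr4 (ENSMUSG00000044199.6, 81497747 to 81500132), Dgka (ENSMUSG00000025357.8, 128720134 to 128744855) and Cd24a (ENSMUSG00000047139.9, 43578284 to 43584265). Klf2 (ENSMUSG00000055148.7) is on chromosome 8, 72319033 to 72321656. Cd69 (ENSMUSG00000030156.5) is on chromosome 6, 129267325 to 129275436, and Ms4a4b (ENSMUSG00000056290.16) on chromosome 19, 11443553 to 11467055. Cd44 (ENSMUSG00000005087.17) is on chromosome 2, 102811141 to 102901665. Of the 8 loci, Dgka overlaps a coding gene, Pmel on the opposite strand. Pmel stayed between -3.55 and -0.42 log2 CPM in all 12 libraries, far under Dgka, which was never below 8.74.

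RefSeq promoter windows (GRCm38.p6) were found for 5 of the 8 members, S1pr4, Klf2, Ms4a4b, Dgka and Cd44. The 250 bases before the start site are shown for 4 of them because the members include KLF2 itself, a factor that binds CACCC boxes. Capitals mark CACCC, or GGGTG for a box on the other strand. The Cd44 window is shown as the one of the largest change below and holds no box.
S1pr4 (chr10:81500138-81500387, minus strand): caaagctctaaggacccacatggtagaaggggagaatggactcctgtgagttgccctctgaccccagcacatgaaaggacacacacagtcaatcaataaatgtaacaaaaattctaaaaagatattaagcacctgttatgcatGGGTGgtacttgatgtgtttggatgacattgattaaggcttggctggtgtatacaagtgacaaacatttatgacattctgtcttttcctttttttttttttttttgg
Klf2 (chr8:72318812-72319061, plus strand): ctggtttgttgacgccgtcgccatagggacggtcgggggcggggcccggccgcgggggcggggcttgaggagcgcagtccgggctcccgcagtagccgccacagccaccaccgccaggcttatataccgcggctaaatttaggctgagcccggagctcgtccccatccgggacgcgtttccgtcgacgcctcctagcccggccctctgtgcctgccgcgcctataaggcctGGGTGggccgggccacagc
Ms4a4b (chr19:11443308-11443557, plus strand): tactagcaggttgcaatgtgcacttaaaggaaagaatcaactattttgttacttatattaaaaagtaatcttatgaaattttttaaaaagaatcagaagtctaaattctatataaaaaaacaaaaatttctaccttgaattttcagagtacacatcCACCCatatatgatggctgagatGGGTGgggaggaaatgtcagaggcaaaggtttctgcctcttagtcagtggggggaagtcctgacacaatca
Cd44 (chr2:102901666-102901915, minus strand): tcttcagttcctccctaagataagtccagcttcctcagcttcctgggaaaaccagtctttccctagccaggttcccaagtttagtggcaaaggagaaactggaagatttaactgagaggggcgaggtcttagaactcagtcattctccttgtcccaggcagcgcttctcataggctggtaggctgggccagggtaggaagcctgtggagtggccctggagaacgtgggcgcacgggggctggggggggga
A box lay 107 bases before the start site of S1pr4, 19 before that of Klf2, and 94 and 71 before that of Ms4a4b. Dgka has 4 start sites in the table, and 1 of these windows held the box. On either strand, CACCC was found in 52.0% of 32851 mouse promoter windows of this length, so a match is common. The AP-1 motif TGANTCA (6.75% of windows) and the FOXO motif GTAAACA (3.17%) had no match in the windows of these 5 members, and none of the 3 motifs overlapped another in them. A match describes these letters and not a bound site.

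All 8 genes were in both deposited tables and passed the filter on low values, a log2 CPM (the log of a gene's count relative to library size) of at least 0 in at least 3 libraries. Each library held an effective 11000000 to 21400000 counts, and the members' values stood on about 182 to 11400 counts. The CD73+ and CD73- new Treg form one table and the tdTomato- Treg and new Tconv the other. The tables may have been scaled separately. Tests therefore stay within a table, and a value set against the other table is a level only. The RNA followed the gates for the Treg lineage: the summed CPM of Foxp3, Il2ra, Ikzf2 and Ctla4 was 3340 to 3660 in CD73+ new Treg, 3220 to 3310 in CD73- new Treg, 3620 to 3780 in tdTomato- Treg and 179 to 195 in new Tconv. Cd3e, Cd3d and Cd4 together had 801 to 1380 CPM in every library. The Lars2 gene alone took 28.5% to 30.2% of the summed CPM in CD73+ new Treg, 22.9% to 28.8% in CD73- new Treg, 30.8% to 32.4% in tdTomato- Treg and 26.7%, 16.1% and 27.4% in new Tconv, where library B stands apart. With Lars2 left out of the library totals, the median log2 fold change of all genes moved to 0.0832 between CD73+ and CD73- new Treg (0.0067 otherwise) and to 0.1511 between tdTomato- Treg and new Tconv (-0.0067 otherwise). Small differences below are read against these shifts too.

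Per kilobase of exon, Klf2 and S1pr1 were the highest of the 8 in the new Treg, and Cd24a the lowest. In CD73+ new Treg the level per kilobase was 7.15 log2 CPM for Klf2, 7.02 for S1pr1 and 6.63 for Dgka, above at least 98.3% of 11069 genes. S1pr1 was at 7.18 in CD73- new Treg, 6.58 in tdTomato- Treg and 6.68 in new Tconv on the same scale. Messenger RNA of the main exit receptor was above that of 98.3% to 98.9% of genes in each of the 4 groups. Cd24a was at 2.87 in CD73+ new Treg, 3.09 in CD73- new Treg, 2.37 in tdTomato- Treg and 3.40 in new Tconv, near the middle of all genes. S1pr4, Cd69, Ms4a4b and Cd44 lay between 2.83 and 6.00 in every group.

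The members differed in how far they moved between groups. The range of the 4 group means was widest for Cd44 (2.02 log2 units), then Cd24a (1.03) and Cd69 (0.99). It was 0.60 for S1pr1, 0.58 for Ms4a4b, 0.41 for Klf2, 0.37 for S1pr4 and 0.22 for Dgka. The SD within a group, pooled over the 4 groups as a root mean square, was 0.068 for Cd44 and 0.284 for Klf2. These were the tightest and the loosest of the 8. These ranges include levels set across the tables, which may have been scaled separately.

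**Figure D1:**
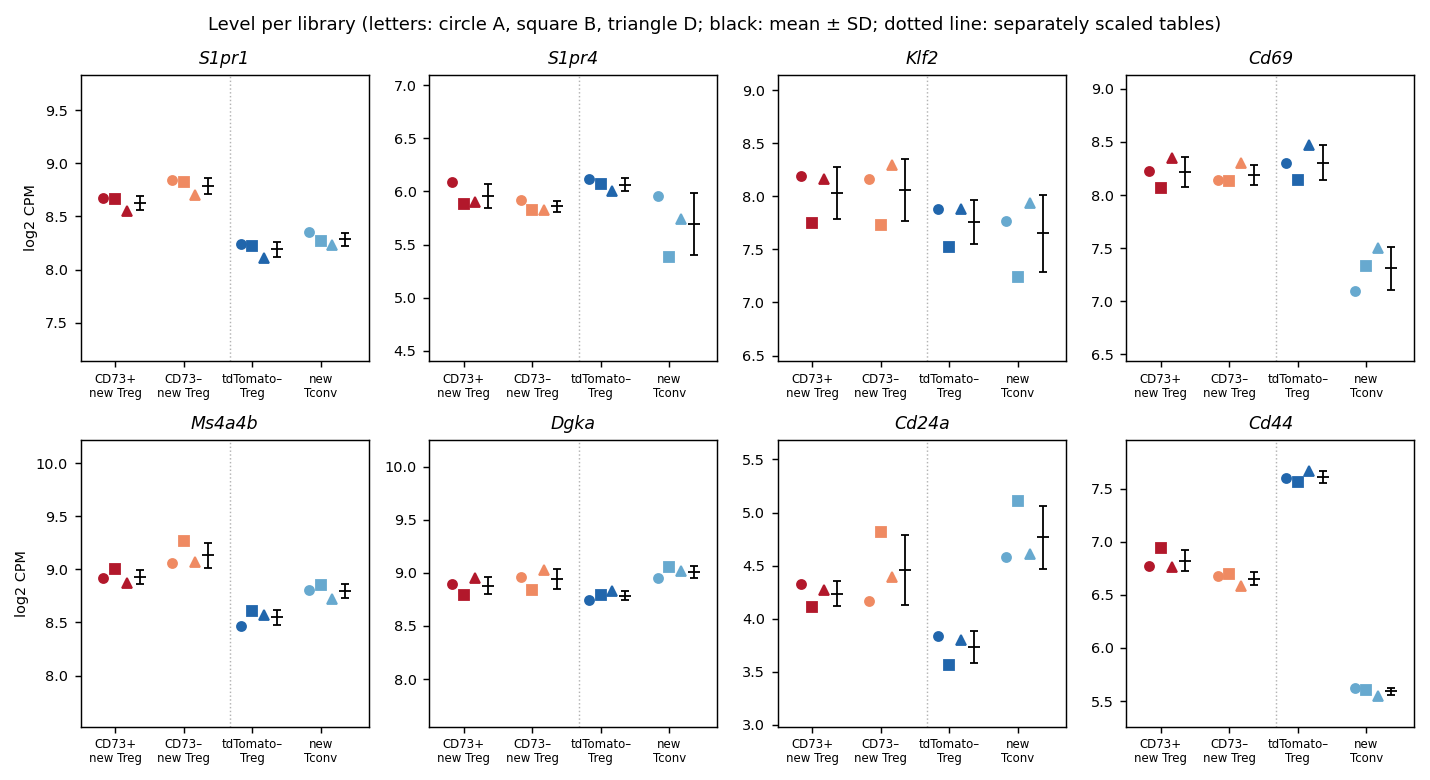
Level of each of the 8 genes (log2 CPM, vertical axis, the same span of 2.7 log2 units in each panel) in the 12 libraries, by group; symbols stand for the letters A, B and D, and black bars for the mean and SD of 3 libraries. Cd44 was highest in tdTomato- Treg and lowest in new Tconv, Cd69 was lowest in new Tconv and Cd24a lowest in tdTomato- Treg.

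Between tdTomato- Treg and new Tconv, 6 of the 8 genes changed: Cd44, Cd69 and S1pr4 were higher and Cd24a, Ms4a4b and Dgka lower in tdTomato- Treg, although Ms4a4b and Dgka were no longer called once Lars2 was left out of the library totals. Cd44 differed 4.06-fold and Cd69 1.99-fold, while Cd24a had 0.489 of its new Tconv level. S1pr1 and Klf2, the receptor of exit and its driver, did not pass the test. The threshold is an adjusted p under 0.05 in limma's test, over 11198 genes. By this rule 52.1% of all genes were called, 26.4% higher and 25.7% lower. With only 8 members, the count of 3 higher and 3 lower is not read as an excess over this background. With Lars2 left out of the totals, 3847 of all genes were called higher and 1488 lower. In 6 of 8 members the 3 libraries of the groups did not overlap, compared with 60.9% of all genes. The authors' deposited table also has 6 of the 8 past 0.05, and 50.6% of its 12957 genes. The groups differ in GFP, in tdTomato and in the CD73 gate. The contributions of lineage, of label status and of the CD73 gate cannot be told apart. In bulk samples, fewer cells that carry a transcript and less of it per cell cannot be told apart either.

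Among the receptors for S1P, S1pr1 gave a difference between tdTomato- Treg and new Tconv that was not past the threshold. S1pr1 had 8.24, 8.22 and 8.11 log2 CPM in tdTomato- Treg, against 8.35, 8.27 and 8.23 log2 CPM in new Tconv. The groups overlapped, at library A of tdTomato- Treg and library D of new Tconv. The log2 fold change was -0.09 (SE 0.05, 95% interval -0.21 to 0.02, adjusted p = 0.167 in limma), so a difference of up to 0.21 log2 units is within the interval. With every library set to the same median the difference was -0.14 with an adjusted p of 0.0379 in limma, and with Lars2 left out of the totals it was 0.06 with an adjusted p of 0.512, so its direction depends on the scaling.

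S1pr4, a second lymphocyte receptor for S1P, was higher in tdTomato- Treg. It had 6.12, 6.07 and 6.00 log2 CPM in tdTomato- Treg, against 5.96, 5.38 and 5.74 log2 CPM in new Tconv. The groups did not overlap, and new Tconv library B, the one with the low Lars2 share, was the lowest. This gave a log2 fold change of 0.37 (SE 0.11, adjusted p = 0.00808 in limma). Without new Tconv library B it was 0.21 with an adjusted p of 0.0418.

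The transcription factor gene Klf2 had 7.88, 7.52 and 7.88 log2 CPM in tdTomato- Treg, against 7.77, 7.24 and 7.94 log2 CPM in new Tconv. The groups overlapped throughout, and library B was the lowest of each. The fitted difference was 0.11 log2 units (SE 0.17, 95% interval -0.24 to 0.46, adjusted p = 0.61 in limma). Without new Tconv library B the value was -0.10 with an adjusted p of 0.64, so the values give no direction.

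Cd69, whose protein holds S1PR1 inside the cell, had 8.30, 8.14 and 8.47 log2 CPM in tdTomato- Treg, against 7.10, 7.33 and 7.50 log2 CPM in new Tconv. Every tdTomato- Treg library lay above every new Tconv library. Cd69 had a log2 fold change of 0.99 (SE 0.10, adjusted p = 2.11e-07 in limma), higher in 3 of 3 letters. It stayed between 0.89 and 1.15 over all 22 alternatives.

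Cd44, the hyaluronan receptor, had 7.60, 7.56 and 7.67 log2 CPM in tdTomato- Treg, against 5.62, 5.60 and 5.55 log2 CPM in new Tconv. The gap between the groups was many times the spread within either. Its log2 fold change was 2.02 (SE 0.06, adjusted p = 3.8e-14 in limma), and it was 1.97 to 2.18 over the 22 alternatives. Cd44 had the 56th smallest p of the 11198 genes.

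Cd24a, which encodes the heat-stable antigen carried by immature thymocytes, had 3.84, 3.56 and 3.80 log2 CPM in tdTomato- Treg, against 4.58, 5.11 and 4.61 log2 CPM in new Tconv. The groups did not overlap. Cd24a had a log2 fold change of -1.03 (SE 0.16, adjusted p = 4.18e-05 in limma), and it was -0.86 without new Tconv library B, its highest library. Processed copies of Cd24a exist in the mouse genome, so its counts may hold reads shared with them. Transcripts of double-positive and CD8 thymocytes, which carry much CD24, went in both directions. Their summed CPM was 68.7, 53.7 and 51.7 in tdTomato- Treg and 46.7, 50.9 and 48.9 in new Tconv. Of 6 tested, Rag1 and Arpp21 were higher in tdTomato- Treg, and Cd8b1, a chain of the CD8 coreceptor, was lower, with 2.98 ± 0.07 log2 CPM in tdTomato- Treg and 3.87 ± 0.03 in new Tconv. The median of the 6 was -0.25, and their part in the Cd24a difference was not tested.

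Ms4a4b encodes a membrane protein with several membrane-spanning segments that late CD4+ thymocytes carry. It had 8.47, 8.61 and 8.57 log2 CPM in tdTomato- Treg, against 8.81, 8.85 and 8.72 log2 CPM in new Tconv. The groups did not overlap, and the log2 fold change was -0.24 (SE 0.06, adjusted p = 0.00298 in limma). With Lars2 left out of the totals it was -0.09 with an adjusted p of 0.287, so the call depends on that scaling. Ms4a4b has close relatives beside it, and how the counting split shared reads was not tested.

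Dgka encodes a kinase that removes diacylglycerol (DAG), the signal that activates RASGRP1 and protein kinase C after the T cell receptor is engaged. It had 8.74, 8.79 and 8.83 log2 CPM in tdTomato- Treg, against 8.95, 9.06 and 9.02 log2 CPM in new Tconv. The log2 fold change was -0.22 (SE 0.06, adjusted p = 0.00302 in limma), with no overlap. As for Ms4a4b, the call was lost with Lars2 left out of the totals (-0.07, adjusted p = 0.497).

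**Figure D2:**
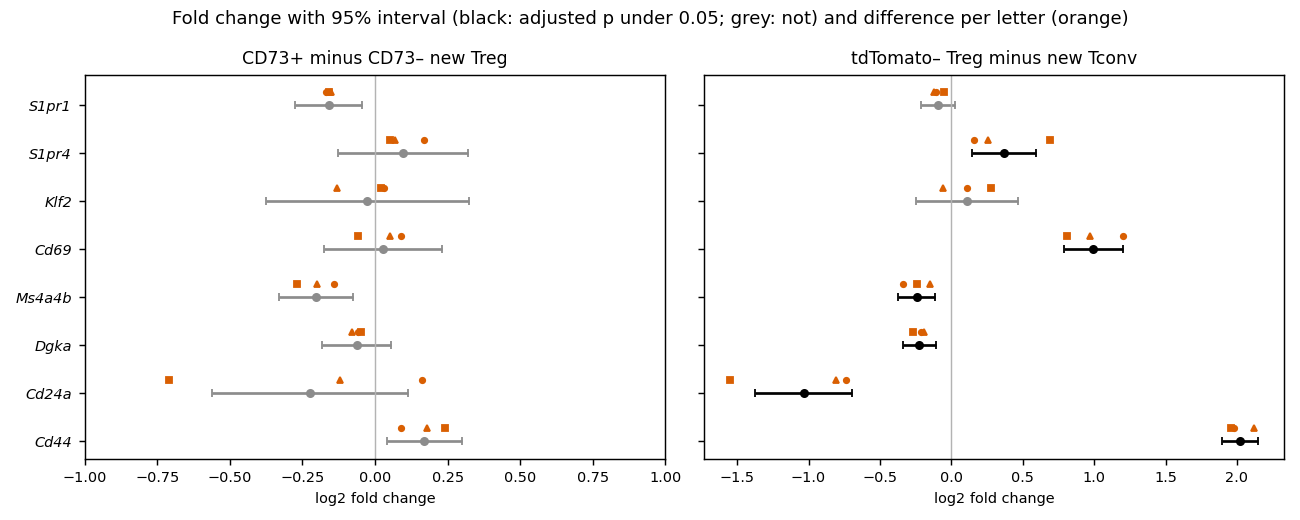
Log2 fold change of each gene (horizontal axis, on a different span in each panel) with its 95% interval for CD73+ minus CD73- new Treg (left) and tdTomato- Treg minus new Tconv (right); orange symbols give the difference between the libraries of each letter. In the fit without a block, none of the 8 is past the threshold on the left and 6 are on the right, with Cd44 at 2.02 and Cd24a at -1.03.

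Between CD73+ and CD73- new Treg none of the 8 genes was past the threshold in the fit without a block, and the largest differences were 0.22 log2 units or less. S1pr1 and Ms4a4b were lower in CD73+ new Treg once libraries of the same letter were compared with each other, and the call on these genes depends on that choice. Cd44 was higher in CD73+ new Treg in 3 of 3 letters without passing either test. By limma 276 of 11170 genes were called (2.47%), or 5.89% with the letter as a replicate block, against 0 and 2 of the 8 members. At an unadjusted p under 0.05 there were 3 of 8, Ms4a4b, S1pr1 and Cd44. They ranked 470, 762 and 900 by p among the 11170 genes, and the share of all genes at that level was not counted. In 3 members the groups did not overlap, compared with 18.2% of all genes. The authors' deposited table has 0 of the 8 past 0.05, and 1.19% of its 12660 genes.

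S1pr1 had 8.67, 8.66 and 8.55 log2 CPM in CD73+ new Treg, against 8.84, 8.82 and 8.70 log2 CPM in CD73- new Treg. The CD73+ library was the lower one at every letter, by 0.17, 0.16 and 0.15, and the groups did not overlap. The log2 fold change was -0.16 (SE 0.05), with an adjusted p of 0.141 in limma and of 0.0163 with the replicate block. S1pr1 had 0.895 of its CD73- level in CD73+ new Treg. Leaving Lars2 out of the totals made the difference -0.08 with an adjusted p of 0.645.

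Ms4a4b had 8.92, 9.0 and 8.87 log2 CPM in CD73+ new Treg, against 9.06, 9.27 and 9.07 log2 CPM in CD73- new Treg. The groups did not overlap, and CD73- library B was the highest. Its log2 fold change was -0.20 (SE 0.06), with an adjusted p of 0.0922 in limma and of 0.00781 with the replicate block. It was -0.13 with Lars2 left out of the totals, with an adjusted p of 0.338.

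Cd44 had 6.77, 6.94 and 6.76 log2 CPM in CD73+ new Treg, against 6.68, 6.70 and 6.58 log2 CPM in CD73- new Treg. The groups did not overlap, though the gap between the nearest libraries was small. The log2 fold change was 0.17 (SE 0.06, 95% interval 0.04 to 0.30), with an adjusted p of 0.152 in limma and of 0.0868 with the replicate block. Both new Treg groups lay between new Tconv and tdTomato- Treg in level, across tables that may have been scaled separately.

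Cd24a had 4.33, 4.11 and 4.27 log2 CPM in CD73+ new Treg, against 4.17, 4.82 and 4.39 log2 CPM in CD73- new Treg. The groups overlapped, and CD73- library B stood above the other 5. The log2 fold change was -0.22 (SE 0.16, adjusted p = 0.503 in limma), and -0.04 without that library. The same library was the highest of the 6 in transcripts of double-positive and CD8 thymocytes: the summed CPM of that list was 35.2, 33.1 and 29.5 in CD73+ new Treg and 46.0, 96.8 and 37.6 in CD73- new Treg. Of that list, Rag1, which cuts receptor gene segments, had 2.10, 2.55 and 1.59 log2 CPM in CD73+ new Treg, against 2.72, 4.75 and 2.70 log2 CPM in CD73- new Treg. The part of such cells in the Cd24a values was not tested.

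The other 4 genes gave differences near 0. S1pr4 had 6.09, 5.88 and 5.90 log2 CPM in CD73+ new Treg, against 5.92, 5.83 and 5.83 log2 CPM in CD73- new Treg (log2 fold change 0.10, 95% interval -0.13 to 0.32, adjusted p = 0.694 in limma). Klf2 had 8.19, 7.75 and 8.16 log2 CPM in CD73+ new Treg, against 8.16, 7.73 and 8.29 log2 CPM in CD73- new Treg (-0.03, 95% interval -0.38 to 0.32, adjusted p = 0.957 in limma). For both genes the groups overlapped, and library B was the lowest Klf2 value of each group. Cd69 had 8.23, 8.07 and 8.35 log2 CPM in CD73+ new Treg, against 8.14, 8.13 and 8.30 log2 CPM in CD73- new Treg (0.03, 95% interval -0.18 to 0.23, adjusted p = 0.92 in limma). Dgka had 8.90, 8.79 and 8.95 log2 CPM in CD73+ new Treg, against 8.96, 8.84 and 9.03 log2 CPM in CD73- new Treg (-0.06, 95% interval -0.18 to 0.05, adjusted p = 0.606 in limma). Dgka was lower in CD73+ new Treg at 3 of 3 letters, by 0.05 to 0.08, which is within the overlap of the groups.

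In order of level, S1pr1 was lowest in tdTomato- Treg (8.19 ± 0.07 log2 CPM, SD, n = 3), followed by new Tconv (8.28 ± 0.06), CD73+ new Treg (8.63 ± 0.07) and CD73- new Treg (8.79 ± 0.08). Its new Tconv and tdTomato- Treg libraries overlapped, and the other neighbours in the order did not. Ms4a4b had the same order, with no overlap between any neighbours. For Klf2, S1pr4 and Dgka every neighbouring pair of groups overlapped. Cd69 overlapped in the 3 Treg groups and stood apart in new Tconv, Cd24a stood apart in tdTomato- Treg, and all 4 groups of Cd44 were separate. The step between the tables carries any separate scaling of them, although the median gene differed by no more than 0.033 log2 units between any 2 groups.

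The balance of 2 members within a library does not depend on the scaling of that library, so it can be set side by side over all 4 groups. These differences were described without a test. S1pr1 minus Cd69 was 0.44, 0.59 and 0.20 log2 units in CD73+ new Treg, 0.70, 0.69 and 0.40 in CD73- new Treg, -0.06, 0.08 and -0.36 in tdTomato- Treg, and 1.25, 0.94 and 0.73 in new Tconv. The difference was largest in new Tconv and smallest in tdTomato- Treg (-0.11 ± 0.23, SD, n = 3). Exon length is not taken out of it, so its sign does not say which transcript was more abundant: per kilobase of exon, S1pr1 was above Cd69 in each group, at 6.58 against 5.60 log2 CPM in tdTomato- Treg and 6.68 against 4.61 in new Tconv. The tdTomato- Treg and new Tconv ranges overlapped with no other group's, while those of CD73+ and CD73- new Treg overlapped each other, with the CD73+ library the lower at 3 of 3 letters. Library D was the lowest of each group.

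S1pr1 minus S1pr4 was 2.67 ± 0.10 (SD, n = 3) in CD73+ new Treg, 2.93 ± 0.06 in CD73- new Treg, 2.13 ± 0.02 in tdTomato- Treg and 2.59 ± 0.27 in new Tconv. This difference was smallest in tdTomato- Treg, whose libraries spanned 2.11 to 2.15 and overlapped no other group. Klf2 minus Cd69 was -0.18 ± 0.14 in CD73+ new Treg, -0.13 ± 0.23 in CD73- new Treg, -0.54 ± 0.11 in tdTomato- Treg and 0.34 ± 0.39 in new Tconv. Ms4a4b minus Cd24a, a late against an early marker, was 4.69 ± 0.17 in CD73+ new Treg, 4.67 ± 0.22 in CD73- new Treg, 4.82 ± 0.21 in tdTomato- Treg and 4.03 ± 0.26 in new Tconv. The 3 Treg groups overlapped in this last balance, and all their libraries lay above those of new Tconv.

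**Figure D3:**
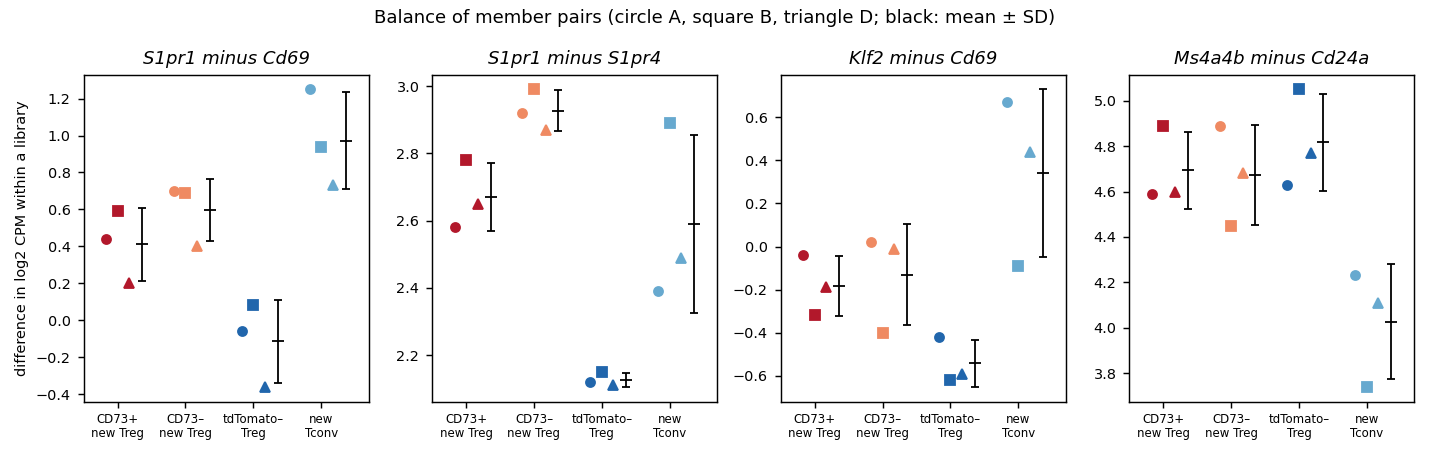
Difference in log2 CPM between 2 members within each library (vertical axis, one span per panel), by group; symbols stand for the letters A, B and D and black bars for the mean and SD of 3 libraries. S1pr1 minus Cd69 averages -0.11 in tdTomato- Treg and 0.97 in new Tconv, and Ms4a4b minus Cd24a is lowest in new Tconv.

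Part of the spread within groups ran by letter. Klf2 was lowest in library B in 4 of 4 groups, Cd69 was highest in library D in 4 of 4, S1pr1 was lowest in D and highest in A in 4 of 4, S1pr4 was highest in A in 4 of 4, and Ms4a4b was highest in B in 4 of 4. What the letters stand for is not given in the sources used here. Taken as a mean, the level of 14 immediate early genes, which are induced within minutes by receptor signals and by handling of cells, was 7.16, 6.87 and 7.53 log2 CPM in CD73+ new Treg, 7.08, 6.67 and 7.46 in CD73- new Treg, 7.51, 7.34 and 7.79 in tdTomato- Treg, and 6.59, 6.26 and 7.13 in new Tconv. It was lowest in B and highest in D in each group, as Klf2 was lowest in B and Cd69 highest in D. Of these 14 genes 9 were higher and 1 lower in tdTomato- Treg than in new Tconv (median log2 fold change 0.67, against -0.007 over all genes), beside the higher Cd69. Btg2, an antiproliferative gene, had 7.87 ± 0.11 log2 CPM in tdTomato- Treg and 7.46 ± 0.03 in new Tconv (SD, n = 3), and Egr1, a zinc finger factor, was the one that was lower, at 6.88 ± 0.20 in tdTomato- Treg and 7.20 ± 0.07 in new Tconv. Ier5 was higher, with 7.19 ± 0.04 log2 CPM in tdTomato- Treg and 6.47 ± 0.27 in new Tconv. None of the 14 was called between CD73+ and CD73- new Treg by limma, at a median of 0.13. With the replicate block 1 was higher, Ier2, with 5.95 ± 0.14 log2 CPM in CD73+ new Treg and 5.65 ± 0.19 in CD73- new Treg (adjusted p = 0.0474 in limma). Their part in the Cd69 difference was not tested.

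**Figure D4:**
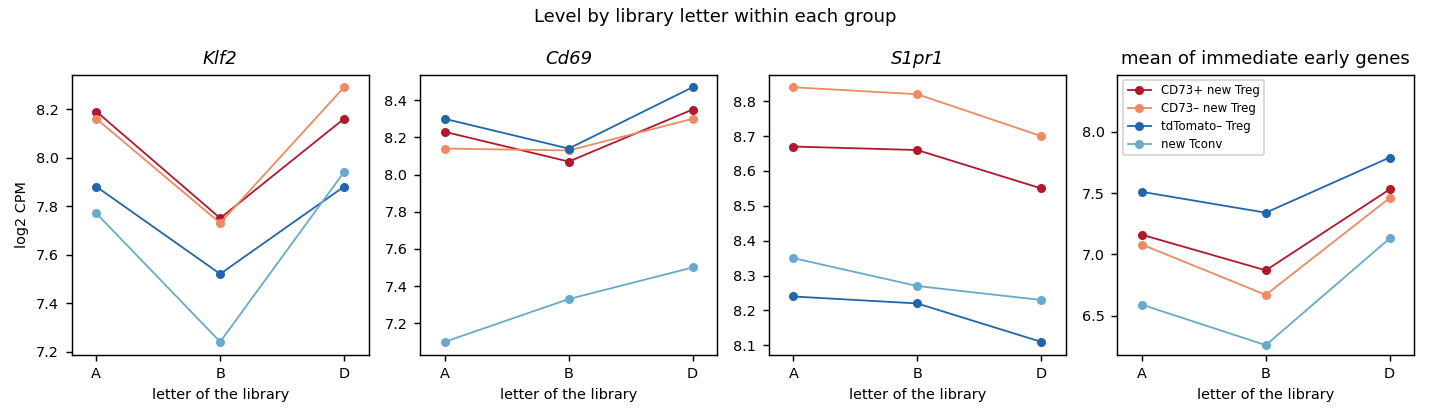
Level (log2 CPM, vertical axis, one span per panel) of Klf2, Cd69, S1pr1 and the mean of 14 immediate early genes at the letters A, B and D, with one line per group. Klf2 and the immediate early mean dip at B, Cd69 and the immediate early mean peak at D, and S1pr1 is lowest at D in each group.

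Other genes of the same pathways were taken as lists from general knowledge, but with earlier results of these data known. The counts are set beside the 52.1% and 2.47% of all genes called. They are a description and not an independent test. Of 12 tested genes for making, breaking down and sensing S1P, 4 were higher and 3 lower in tdTomato- Treg than in new Tconv, which is near the background, and with Lars2 left out of the totals 7 were higher and 1 lower. Gna13, a G protein subunit used by S1P receptors, had 7.97 ± 0.06 log2 CPM in tdTomato- Treg and 7.61 ± 0.06 in new Tconv. Arrb2, an arrestin that uncouples receptors, had 6.25 ± 0.05 in tdTomato- Treg and 6.96 ± 0.14 in new Tconv, and Dnm2, a dynamin of receptor uptake, had 7.41 ± 0.03 in tdTomato- Treg and 7.79 ± 0.04 in new Tconv. Plpp1, a lipid phosphatase that can remove the phosphate of S1P, was past the threshold in both comparisons and was low throughout. Plpp1 passed the filter on low values only through tdTomato- Treg, so its direction against new Tconv was partly fixed by the filter. Every new Treg value of Plpp1 lay under the filter level. It had -0.71, -0.55 and -0.95 log2 CPM in CD73+ new Treg, against -4.81, -3.53 and -4.46 in CD73- new Treg, and 1.38, 1.20 and 1.14 in tdTomato- Treg, against -5.13, -2.61 and -2.36 in new Tconv. All CD73- new Treg values are below the level of 3 counts. Plpp1 was the only called gene of the list between CD73+ and CD73- new Treg. S1pr3, S1pr5, Sphk1, Spns2 and Plpp3 had no row and are not analysed here.

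Of 12 genes of the FOXO1 and KLF2 programme, 8 were higher and 3 lower in tdTomato- Treg than in new Tconv, a median of 0.29. Cd55, a complement inhibitor, had 4.78 ± 0.21 log2 CPM in tdTomato- Treg and 3.24 ± 0.09 in new Tconv. On the lower side were Slfn2, a gene of T cell quiescence, with 7.34 ± 0.04 in tdTomato- Treg and 7.69 ± 0.10 in new Tconv, and Il7r, the interleukin 7 receptor, with 7.75 ± 0.05 in tdTomato- Treg and 8.17 ± 0.09 in new Tconv, beside Ccr7. Genes that KLF2 or FOXO1 are known to drive went in both directions, and Klf2 itself was not past the threshold. Between CD73+ and CD73- new Treg, Il7r was the one of 12 that was called, with 6.21 ± 0.20 in CD73+ new Treg and 5.48 ± 0.23 in CD73- new Treg (0.73, SE 0.10, adjusted p = 0.00115 in limma).

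Of 15 markers of late single-positive maturation, 11 were higher and 4 lower in tdTomato- Treg than in new Tconv, with a median of 0.78 log2 units. The class I MHC gene H2-Q6 had 7.83 ± 0.09 log2 CPM in tdTomato- Treg and 2.90 ± 0.13 in new Tconv, and Ifngr1, an interferon gamma receptor chain, had 7.91 ± 0.02 in tdTomato- Treg and 5.77 ± 0.12 in new Tconv. H2-Q6 has near-identical neighbours, so its counts may be shared with them. Slfn1, with 6.66 ± 0.05 in tdTomato- Treg and 7.65 ± 0.17 in new Tconv, and the costimulatory receptor gene Cd28, with 8.33 ± 0.13 in tdTomato- Treg and 9.08 ± 0.08 in new Tconv, were lower, as Ms4a4b was. Of 12 tested markers of immature single-positive cells, 2 were higher and 7 lower, with a median of -0.37. Itm2a, a membrane protein of thymocytes under selection, had 6.44 ± 0.07 in tdTomato- Treg and 8.56 ± 0.15 in new Tconv, and the chromatin organiser gene Satb1 had 9.84 ± 0.06 in tdTomato- Treg and 11.53 ± 0.02 in new Tconv. The chemokine receptor gene Ccr4 and Rag1 were the higher ones, Ccr4 with 5.62 ± 0.14 in tdTomato- Treg and 4.94 ± 0.28 in new Tconv, and Rag1 with 3.87 ± 0.36 in tdTomato- Treg and 2.48 ± 0.24 in new Tconv. Cd24a and 7 of 12 genes of this list were lower in tdTomato- Treg, and Rag1 was higher.

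Between CD73+ and CD73- new Treg, 2 of 15 late markers were higher, Il7r and H2-Q6 (5.87 ± 0.22 log2 CPM in CD73+ new Treg and 5.23 ± 0.32 in CD73- new Treg, adjusted p = 0.0172 in limma). With the replicate block Cd28 was also called, and it was lower, with 8.73 ± 0.13 in CD73+ new Treg and 8.98 ± 0.04 in CD73- new Treg (adjusted p = 0.00619 in limma). Of the 12 immature markers 2 were lower in CD73+ new Treg, Themis, a gene of T cell receptor signalling in selection (7.46 ± 0.11 in CD73+ new Treg and 7.83 ± 0.10 in CD73- new Treg), and Satb1 (10.55 ± 0.10 in CD73+ new Treg and 10.88 ± 0.07 in CD73- new Treg). With the replicate block 4 were lower. Ccr4 was higher, with 2.88 ± 0.12 in CD73+ new Treg and 1.83 ± 0.29 in CD73- new Treg. The list's summed CPM was 3010 to 3390 in CD73+ new Treg and 3490 to 3800 in CD73- new Treg.

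Of 15 genes of the actin and motility machinery that egress uses, 4 were higher and 3 lower in tdTomato- Treg than in new Tconv, under the background share, and 6 were higher and 2 lower with Lars2 left out of the totals. Cxcr4, a chemokine receptor that holds thymocytes in place, had 6.16 ± 0.18 log2 CPM in tdTomato- Treg and 5.02 ± 0.28 in new Tconv, and Stk4, a kinase needed for egress, had 8.42 ± 0.06 in tdTomato- Treg and 9.17 ± 0.08 in new Tconv. Dock2, a Rac activator, had 9.68 ± 0.07 in tdTomato- Treg and 9.28 ± 0.03 in new Tconv, and Plxnd1, a guidance receptor, had 5.58 ± 0.09 in tdTomato- Treg and 6.22 ± 0.10 in new Tconv. None of the 15 was called between CD73+ and CD73- new Treg by limma, and 1 was lower with the replicate block.

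A list of 12 other genes around DAG signalling held DAG kinases, DAG targets, an enzyme that makes DAG and a phosphatase. Of these genes, 3 were higher and 5 lower in tdTomato- Treg than in new Tconv. Rasgrp2, an activator of RAP1, had 6.38 ± 0.08 log2 CPM in tdTomato- Treg and 7.81 ± 0.10 in new Tconv (log2 fold change -1.42, adjusted p = 3.24e-10 in limma). The phosphatase gene Ptpn6 had 6.44 ± 0.03 in tdTomato- Treg and 7.27 ± 0.14 in new Tconv. The kinase genes Prkcd, with 6.07 ± 0.06 in tdTomato- Treg and 5.28 ± 0.08 in new Tconv, and Dgkh, with 5.70 ± 0.07 in tdTomato- Treg and 4.76 ± 0.14 in new Tconv, were higher. Dgka had a log2 fold change of -0.22 and its relative Dgkh one of 0.94. Rasgrp2 was also the gene of the list that was lower in CD73+ new Treg, with 6.92 ± 0.15 in CD73+ new Treg and 7.33 ± 0.15 in CD73- new Treg (-0.41, adjusted p = 0.0153 in limma). With the replicate block 4 were lower, and with Lars2 left out of the totals 0 were.

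Of the other MS4A genes 3 were abundant enough to test. Ms4a4c, with 4.10 ± 0.05 log2 CPM in tdTomato- Treg and 2.95 ± 0.22 in new Tconv, and Ms4a6b, with 8.67 ± 0.03 in tdTomato- Treg and 8.48 ± 0.04 in new Tconv, were higher in tdTomato- Treg, opposite to Ms4a4b. Ms4a6c was lower in CD73+ new Treg, with 3.36 ± 0.12 in CD73+ new Treg and 3.88 ± 0.16 in CD73- new Treg (adjusted p = 0.0301 in limma).

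Markers of recirculating and effector Treg moved beside Cd44. All 12 were higher in tdTomato- Treg than in new Tconv, with a summed CPM of 474 to 524 in tdTomato- Treg and 25.8 to 29.6 in new Tconv. Klrg1, Gzmb, Cxcr3 and Il1rl1 would not have passed the filter on low values without the tdTomato- Treg libraries. For these genes the direction was partly fixed by the filter. Of 11 tested between CD73+ and CD73- new Treg, 7 were higher and none was lower in CD73+ new Treg, with a summed CPM of 74.6 to 82.9 in CD73+ new Treg and 38.6 to 40.2 in CD73- new Treg. Itgae, which encodes CD103, had 7.79 ± 0.07 log2 CPM in tdTomato- Treg and 0.78 ± 0.02 in new Tconv, and 4.50 ± 0.13 in CD73+ new Treg and 2.62 ± 0.12 in CD73- new Treg. Ccr6, a chemokine receptor of Treg that returned from the periphery, had 6.22, 6.41 and 6.24 in tdTomato- Treg and -0.88, -1.96 and -2.00 in new Tconv. Il1rl1, the interleukin 33 receptor, had -0.10, -0.19 and -0.51 in CD73+ new Treg and -4.81, -3.53 and -4.46 in CD73- new Treg. All 3 of the CD73- new Treg values are below the level of 3 counts. Cxcr3 (-3.64 ± 1.73 log2 CPM), Tigit (-2.58 ± 1.94) and S100a6 (-1.79 ± 1.16), also among the 7, were low in CD73- new Treg too. The sizes of these differences rest on few counts. Il1rl1 and Cxcr3 averaged under the filter level in both new Treg groups. Several of these genes are also Treg lineage genes, and their part in the Cd44 difference was not tested.

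**Figure D5:**
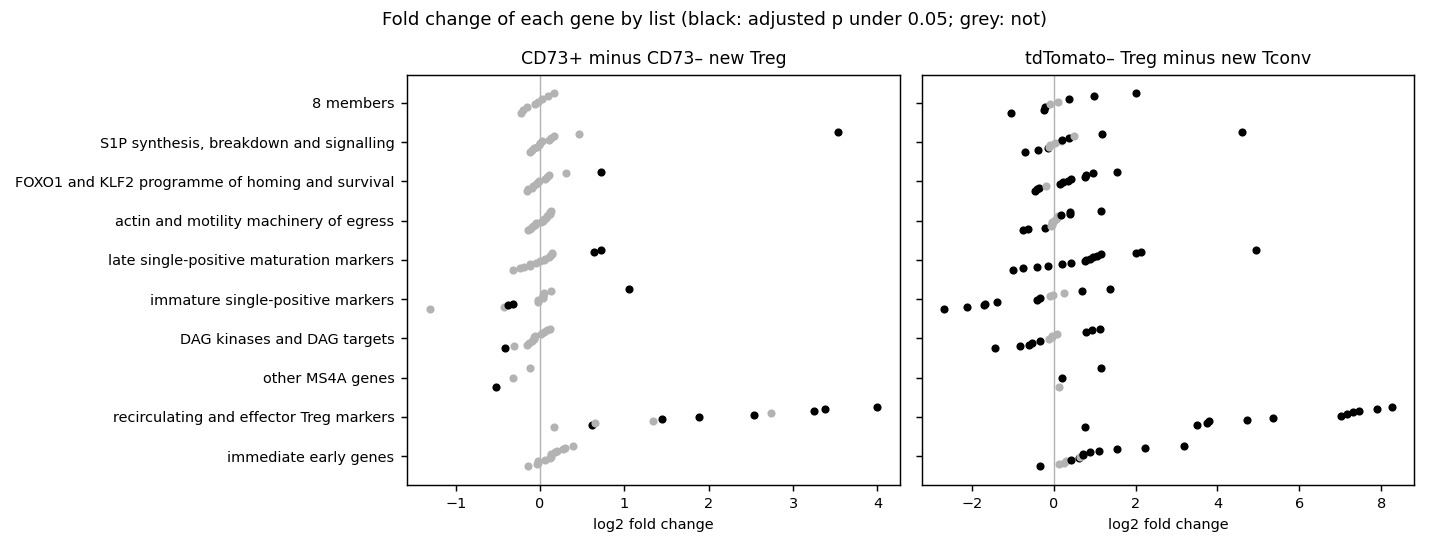
Log2 fold change of each tested gene (horizontal axis, on a different span in each panel) in the 8 members and in each list of other pathway genes, for CD73+ minus CD73- new Treg (left) and tdTomato- Treg minus new Tconv (right); black points have an adjusted p under 0.05. Late maturation markers lie mostly to the right in tdTomato- Treg and immature markers mostly to the left, while most points of the left panel lie near 0.

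Markers of other cells were low beside these values, and some moved between groups. B cell markers summed to 4.12 to 5.81 CPM in CD73+ new Treg, 3.95 to 6.73 in CD73- new Treg, 8.89 to 11.7 in tdTomato- Treg and 3.68 to 5.28 in new Tconv. Myeloid and dendritic cell markers summed to 27.3 to 30.1 CPM in CD73+ new Treg, 20.1 to 31.8 in CD73- new Treg, 34.4 to 44.9 in tdTomato- Treg and 20.5 to 22.3 in new Tconv, and 3 of 6 were higher in tdTomato- Treg than in new Tconv. Of 2 tested B cell genes, Cd79b was higher in tdTomato- Treg (2.14 ± 0.11 log2 CPM, against -1.07 ± 0.61 in new Tconv) and Cd79a was not called. B cells and myeloid cells can carry CD44 and CD69, and both marker sums were higher in the group with more Cd44 and Cd69. At the mean log2 level Cd44 had 195 CPM in tdTomato- Treg and 48.2 in new Tconv, and Cd69 had 316 and 159. Erythroid markers summed to 90.6 to 113 CPM in CD73+ new Treg, 98.7 to 119 in CD73- new Treg, 91.0 to 144 in tdTomato- Treg and 67.2 to 107 in new Tconv, and 2 of 5 were higher in tdTomato- Treg than in new Tconv. Natural killer and innate-like T cell markers summed to 10.6 to 12.3 CPM in CD73+ new Treg and 3.87 to 7.30 in CD73- new Treg, where 2 of 3 tested, Zbtb16 and Nkg7, were higher in CD73+ new Treg. They summed to 11.4 to 12.4 CPM in tdTomato- Treg and 9.51 to 11.6 in new Tconv, with Nkg7 higher and Zbtb16 lower in tdTomato- Treg. Thymic epithelial markers summed to 28.6 to 37.8 CPM over the 12 libraries. Of the 2 tested between tdTomato- Treg and new Tconv, Epcam was higher and Ccl25 lower in tdTomato- Treg. The part of such cells in the members' values was not tested.

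As a description over 12 libraries, each centred on the mean of its table, the genes whose level ran most like each member were sought among 10734 genes. Points share their library, letter and depth, and the parts of group and letter in these values were not tested. For Cd44 they were Fam129a, Igf1r and Coro2a, each with a Pearson r of 0.998. For Cd69 they were Nudt4 (0.977), Lrmp (0.976) and Fam118a (0.975), for Klf2 Maff (0.968), Arf4 (0.963) and Kctd2 (0.945), and for Cd24a Abcd3 (0.961), Topbp1 (0.961) and Arpc5l (0.959). For S1pr1 they were Sike1 (0.916), Ncbp3 (0.914) and Gpn3 (0.878), the lowest values of the 8. For S1pr4 they were Rabac1 (0.950), Ppp2r1a (0.947) and Rps18 (0.941), for Ms4a4b Tusc2 (0.948), Rab3gap1 (0.938) and Pwwp2a (0.932), and for Dgka Dcaf5 (0.957), Ripk3 (0.957) and Pfkfb2 (0.950). Among the members themselves, Cd69 and Cd44 ran together (r = 0.926), Cd24a ran against Cd44 (r = -0.872), and S1pr1 and Klf2 had an r of -0.246 over the same 12 libraries. Within groups Cd69 and Cd44 mostly did not run together. In both new Treg groups Cd44 was highest and Cd69 lowest in library B, and in new Tconv this held for library A. In tdTomato- Treg both were lowest in B and highest in D.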

How the data were processed

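The authors deposited log2 CPM values per gene and library, with half-count offsets read from the values themselves, in 2 tables of 6 libraries filtered and scaled apart. They also deposited log2 fold changes, p-values, adjusted p-values and test scores. Per the submitters' processing notes the tools were RSEM, STAR and limma, on mm10; versions and strand handling are not given in the sources used here. RNA came from TRIzol extraction and libraries from KAPA RNA HyperPrep, per the labels' protocols.

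One limma 3.58.1 fit (R 4.3.3) held 4 group means over the 12 libraries, an intensity trend and no block, after a filter that kept genes reaching log2 CPM 0 in 3 or more libraries. Contrasts stayed within a table. Two-sided p-values had a Benjamini-Hochberg adjustment across every gene of the comparison, with a threshold of 0.05. The script was tested on simulated data. Errors are SD over 3 libraries or the fit's standard error (SE). A count of 3 corresponds to a log2 CPM of -2.84 to -1.88; this limit covers counting error alone, as no molecular identifiers are known of.

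Same-letter CD73+ and CD73- new Treg libraries deviated together from their group means (r = 0.146, 0.266 and 0.222 across 9942 genes at log2 CPM 0 or more in every library; 0.11, 0.082 and 0.058 across all 11167), so the letters were treated as pairing them. The main fit stayed without the block. Between the new Treg groups the blocked value stands beside a member whose call it changes. For S1pr1 between tdTomato- Treg and new Tconv it is given in the closing section on processing. For tdTomato- Treg and new Tconv r was 0.117, 0.114 and 0.054 across the 9942 genes, and 0.038, 0.103 and 0.068 across all 11167. Their letters were not treated as pairing. In both comparisons the libraries share only a letter by their labels, so this choice rests on these correlations alone.

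The members and gene lists were chosen with earlier results of these data known. Besides the members, up to 2 genes were named per list, comparison and direction, by smallest p. Ccr7, Ier2, Rag1, Klrg1, Gzmb, Cxcr3, Tigit, S100a6, Cd28 between the new Treg groups, and the single markers of other cells were chosen after their values were seen. Some genes stand on more than 1 list. The values of 1 list member that the rule takes are not reported here. GENCODE M21 held 13077 of 13207 gene IDs with their version. Promoter windows came from RefSeq.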

Additional observations from a re-analysis of the deposited data

How the results depend on the processing

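The 3 libraries per group limit precision, and at these depths every member stood well above the level of 3 counts. Between tdTomato- Treg and new Tconv, the calls of Cd44, Cd69, Cd24a and S1pr4 held in all 22 alternatives. Leaving Lars2 out of the library totals moved Ms4a4b to -0.086 and Dgka to -0.066, both no longer past the threshold, turned S1pr1 to 0.064 and left 4 members called. S1pr1 passed the threshold at -0.093 with the replicate block by letter and at -0.137 with equal medians. Leaving out 1 library at a time gave Klf2 differences of -0.095 to 0.255. Between CD73+ and CD73- new Treg, 276 genes were called, against 146 with only the 2 groups in the fit, 107 with no intensity trend, 46 without letter D, 101 to 393 with 1 library left out, and 658 with the replicate block. The block, which treats the letters as pairs, called 2 members, S1pr1 at -0.160 and Ms4a4b at -0.203, and changed no other member's call there. Uncalled differences changed sign for Klf2 (0.004 with quantile normalisation, 0.050 with Lars2 left out, 0.025 without letter D, -0.192 to 0.115 with 1 library left out), for Cd69 (-0.003 with equal medians, -0.040 to 0.10 with 1 library left out) and for Dgka (0.013 with Lars2 left out). The genes called higher made up 72.1% of calls between CD73+ and CD73- new Treg and 98.7% with Lars2 left out, and 50.7% and 72.1% between tdTomato- Treg and new Tconv. The cause was not tested for these changes.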
